A study of Mus musculus with 34 samples.

Results

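Transcripts of the AP-1 transcription factor family were followed through a hormone experiment in mouse cells: the Fos genes Fos, Fosb, Fosl1 and Fosl2, the Jun genes Jun, Junb and Jund, and the related genes Atf3, Maff and Batf3. They were taken by gene symbol, and each of the 10 matched 1 of the rows of every one of the 5 expression tables, with 25124 rows per table. The experiment asked how substitutions in the glucocorticoid receptor (GR) change the response to its ligand, within a study of how GR molecules join into multimers. All cells were C127l, a mouse adenocarcinoma line whose own GR had been knocked out before a mouse GR with a GFP tag was added back. The receptors added back were P631A, W718E, P643A, the double substitution W718S/Y722S, or wild type (WT). All cells were kept for 24 h in charcoal-stripped serum, which lowers steroid hormones, and were then given 100 nM dexamethasone (Dex), a synthetic glucocorticoid, or vehicle, with RNA collected at 2 h. There were 3 libraries in each of the Dex and vehicle groups of P631A, W718E, P643A and WT, and 5 in each of those groups of W718S/Y722S, 34 libraries in all. No clone is named in the labels, so the effect of a substitution cannot be told apart from that of its line. Nor do they state whether replicates were separate cultures. The p-values therefore rest on the spread between these libraries, which may be technical.

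AP-1 is a dimer of leucine zipper proteins. Jun proteins pair with each other or with a Fos protein, whereas Fos proteins need a Jun partner, and the pairs bind a short palindrome called the TRE or a longer one called the CRE. Growth factors, serum and stress induce several of the genes within minutes through MAP kinases and serum response factor. Glucocorticoids are known for restraining AP-1, in large part through contact of GR with AP-1 proteins, which a measurement of transcripts does not see.

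Total reads per library were 24.0 to 43.1 M (median 32.3 M), of which 16.5 to 31.5 M were counted in exons. Of exon counts, the ribosomal precursor Rn45s took 13.8 to 18.3% in the mutant lines and 9.95 to 11.3% in WT, and its part in the comparisons with WT was not tested. Markers did not show an epithelial profile: Krt8 reached at most 48.9 normalised counts in any library and Epcam had no read in 29 of 34 libraries, against at least 57676 for Vim and 38584 for Col1a2, which are mesenchymal genes. Other marker sums also set the lines apart on a scale shared by all libraries. The endothelial sum (Pecam1 and Cdh5) was 61.1 to 110.04 in mutant libraries and 215 to 284 in WT, nearly all of it Cdh5, since Pecam1 reached at most 7.95. The leukocyte sum (Ptprc, Cd68 and Adgre1) was 102 to 193 in mutants and 215 to 252 in WT, nearly all Cd68, with Ptprc at most 5.80. The adipocyte sum was 68.9 to 88.6 with Dex and 3.51 to 11.4 with vehicle in WT, and 169.7 to 179 with Dex and 41.1 to 59.9 with vehicle in P643A, mostly Fabp4, with Adipoq at 0 in 19 of 34 libraries. The receptor transcript itself (Nr3c1) stood at 6328 to 6369 in W718S/Y722S vehicle libraries, 5468 to 5572 in P643A, 5075 to 5243 in W718E and 5840 to 6258 in P631A, all below the 7011 to 7145 of WT vehicle. The part of these values in the results was not tested.

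Levels below are read counts recovered from the deposited log2 values and divided by the size factor of each library, called normalised counts, and each line has a scale of its own. In W718S/Y722S, Dex replicate 1 stood apart from the other Dex libraries. Its counts differed from theirs by a chi-square per gene of 9.95 to 12.5, against 1.30 to 3.26 among the other 4. Results of that line are therefore also given without it. Some libraries of a group were near-identical, with a chi-square per gene under 1.5. In W718S/Y722S these were Dex replicates 2 and 3 (1.30), Dex replicates 4 and 5 (1.48) and vehicle replicates 2 and 3 (1.32). In WT they were Dex replicates 2 and 3 (1.34). The main fits count each library separately.

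The family was carried by 6 genes in these cells. On a scale shared by all 34 libraries and divided by transcript length, vehicle cells with WT receptor had 1937 ± 24.8 normalised counts per kb of Jund (SD, n = 3), 981 ± 17.03 of Fosl2 and 630.6 ± 30.8 of Jun. Junb (253 ± 0.550) and Fosl1 (251 ± 23.1) had overlapping libraries there, and Maff followed at 93.4 ± 7.16. Fosb (11.8 ± 0.923) and Fos (9.04 ± 2.29), the family's best known early genes, were near the bottom of the order and their libraries overlapped. Orders and shares per kb depend on the transcript lengths used. For Jund this was 2875 bases, from a RefSeq start 1210 bases upstream of that in GENCODE. A shorter length would raise the Jund values per kb. Fos had 1 to 28 reads per library and Fosb 19 to 62. Atf3, a stress-induced partner of Jun, had 11 reads over all 34 libraries and at most 2 in any, and Batf3, a Jun partner known from dendritic cells, had 9 reads and at most 2. Both were at 0 in all 10 W718S/Y722S libraries. Neither reached the minimum for testing in any line, and Fos did so only in WT, so that 8 members were tested in WT and 7 in each mutant line.

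The level of Fosl1 set each mutant line apart from WT. In vehicle, Fosl1, which encodes FRA1, had 1328 ± 63.7 normalised counts per kb on the shared scale in W718S/Y722S (n = 5), 870 ± 29.1 in P643A, 839 ± 30.8 in W718E and 782 ± 44.8 in P631A (n = 3 each), against 251 ± 23.1 in WT (n = 3). The libraries of each mutant line lay above all WT libraries. In ratios to the WT vehicle mean these were 5.29, 3.46, 3.34 and 3.11. Jund, the most abundant Jun transcript here, went the other way, with ratios of 0.699 in W718S/Y722S, 0.658 in P643A, 0.510 in W718E and 0.755 in P631A. Junb stood at 1.82 times the WT vehicle level in W718S/Y722S and between 0.985 and 1.12 in the other mutants, and Jun lay between 1.01 and 1.22. Fos, at few reads, also lay below all WT vehicle libraries in each mutant, with ratios of 0.483 in W718S/Y722S, 0.177 in P643A, 0.446 in W718E and 0.348 in P631A. These ratios across lines were not tested, because the effect of a substitution cannot be told apart from that of its line. Within the Fos genes, Fosl1 made up 36.8% to 56.9% of the summed vehicle level per kb in the mutant lines and 20.04% ± 1.32 in WT, with nearly all of the rest from Fosl2. In the W718E line Fosl1 and Fosl2 overlapped, in W718S/Y722S Jund and Fosl1 did, and in P643A vehicle Fosl2 (1369 per kb) and Jund (1275) did. The overlaps that involve Jund depend on the length used for it.

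**Figure D1:**
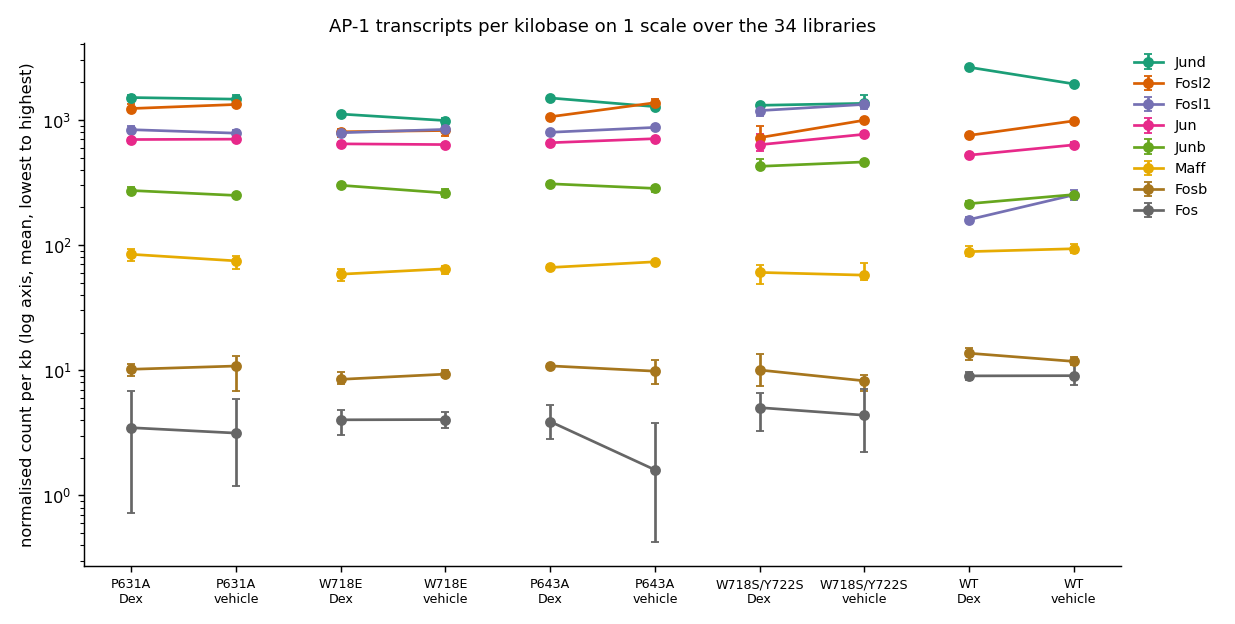
Normalised counts per kb of transcript (log axis) for 8 AP-1 genes in each line with Dex and with vehicle, on 1 scale over the 34 libraries; points are group means, bars run from the lowest to the highest library, and lines join the 2 groups of a line. Fosl1 had 251 per kb in WT vehicle and 782 to 1328 in the vehicle groups of the mutant lines, and the means of Fos and Fosb stayed under 14 in all groups.

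The Fosl1 count may hold reads of another gene. The transcript of Ccdc85b counted by the authors (chromosome 19, 5453163 to 5457563 in mm10, minus strand) covers the 3′ end of Fosl1 (5447698 to 5455938, plus strand), and the file headers give no strand option. Ccdc85b had 2694 ± 99.9 normalised counts on the shared scale in W718S/Y722S vehicle, 1819 ± 63.3 in P643A, 1762 ± 91.5 in W718E and 1711 ± 71.1 in P631A, against 1023 ± 66.2 in WT. It was thus also higher in every mutant line than in WT. The libraries were stranded, but the counting is not stated to use strand, and if it did not, reads of these genes cannot be told apart. GENCODE also annotates an antisense gene opposite the single exon of Jun (Junos) and opposite that of Jund (Gm11175). In bulk RNA such as this, fewer cells that express a gene and less RNA per cell cannot be told apart.

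The promoters of the 4 members that changed with Dex and have an entry in the RefSeq promoter table (GRCm38.p6, the assembly named mm10) are shown for their motif content. Each is the 250 bases before the annotated transcript start, 5′ to 3′ on the strand of the gene. Capitals mark a match to the glucocorticoid response element searched as GNACANNNTGTNC.
Fosl2, chr5:32136222-32136471, plus strand: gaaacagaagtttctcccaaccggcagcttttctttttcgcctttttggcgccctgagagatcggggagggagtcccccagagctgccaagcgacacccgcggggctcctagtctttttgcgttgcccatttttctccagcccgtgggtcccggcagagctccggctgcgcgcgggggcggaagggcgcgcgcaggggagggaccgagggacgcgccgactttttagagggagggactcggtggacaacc
Jun, chr4:95052223-95052472, minus strand: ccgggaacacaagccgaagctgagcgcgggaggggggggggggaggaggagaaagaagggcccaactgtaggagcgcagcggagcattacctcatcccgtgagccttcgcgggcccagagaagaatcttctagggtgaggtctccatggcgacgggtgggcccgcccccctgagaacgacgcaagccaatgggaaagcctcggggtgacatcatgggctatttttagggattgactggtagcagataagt
Junb, chr8:84978749-84978998, minus strand: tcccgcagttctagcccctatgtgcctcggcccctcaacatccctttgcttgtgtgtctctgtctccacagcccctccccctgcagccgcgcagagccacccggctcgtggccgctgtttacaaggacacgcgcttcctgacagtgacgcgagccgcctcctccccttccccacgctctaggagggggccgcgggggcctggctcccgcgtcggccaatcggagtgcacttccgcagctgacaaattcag
Jund, chr8:70697489-70697738, plus strand: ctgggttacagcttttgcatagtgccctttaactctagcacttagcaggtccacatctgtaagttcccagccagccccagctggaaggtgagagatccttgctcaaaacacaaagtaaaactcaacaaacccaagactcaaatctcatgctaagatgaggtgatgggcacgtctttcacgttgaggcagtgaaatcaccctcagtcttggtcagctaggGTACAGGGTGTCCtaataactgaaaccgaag
The search covered both strands of the 11 promoters of the 9 members with an entry, for the TRE as TGANTCA, the CRE as TGACGTCA, the glucocorticoid response element, and the CArG box that serum response factor binds. It gave 2 matches, the one shown in Jund and a CRE in 1 of 3 Maff promoters, and they overlapped no other motif. Only matches to these exact letters were counted. Variant sites, such as tgacatca in the Jun window, were left out, so no match does not mean that a promoter lacks such an element. Over the 32851 promoters searched these motifs were present in 6.75% (TRE), 1.55% (CRE), 0.387% (glucocorticoid response element) and 1.47% (CArG box). For Jund the annotations differ, since GENCODE starts the gene 1210 bases downstream of the RefSeq start, so the window shown is upstream of only the longer transcript. For Fosl2 GENCODE starts 671 bases upstream of the RefSeq start, so the window shown lies within its GENCODE gene. A match of letters is a description and no evidence of binding.

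With WT receptor, Dex moved 5 of the 8 tested members within 2 h: Jund rose, and Fosl2, Fosl1, Jun and Junb fell. The changes were small, from 1.36-fold up for Jund to 0.638-fold for Fosl1. Limma on the deposited log2 values called 6.7% of the 12626 genes tested in WT (3.96% higher and 2.74% lower), which is the background for 5 of 8. Maff, Fosb and Fos did not pass. The median log2 change of the 8 members was -0.15, against 0.00 over all genes tested.

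Jund had 7897, 8092 and 8055 normalised counts in the WT Dex libraries, against 5823, 5934 and 5875 in WT vehicle. Every Dex library lay above every vehicle library, and the means were 8015 ± 104 and 5877 ± 55.5 (SD, n = 3 each). The log2 change was 0.45 ± 0.03 (± SE, as for all log2 changes below) with a limma adjusted p of 4.80e-10. JunD is the Jun protein known for its steady presence in resting cells. Jund was the only tested member that rose in WT.

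Fosl2, which encodes FRA2, had 4517, 4660 and 4814 normalised counts with Dex, against 5928 to 6133 with vehicle in WT, and these groups did not overlap. Its log2 change was -0.38 ± 0.03 (limma adjusted p = 3.31e-08). Fosl1 had 277, 298 and 287 with Dex, against 496, 410 and 446 with vehicle, again apart, with a log2 change of -0.64 ± 0.07 (limma adjusted p = 6.93e-06). Both are Fos proteins that lack the activation region of c-Fos, and in these data they were the abundant Fos transcripts. Ccdc85b, which overlaps Fosl1 on the opposite strand, had a log2 change of -0.26 ± 0.05 in WT (limma adjusted p = 0.00313), and its part in the Fosl1 result was not tested.

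Jun, the founding AP-1 gene, had 1806, 1715 and 1767 normalised counts with Dex, against 2249, 2062 and 2049 with vehicle in WT, with no overlap. The log2 change was -0.26 ± 0.04 (limma adjusted p = 0.000110). Junb, whose protein often opposes c-Jun, had 439, 408 and 403 with Dex, against 493.3, 488 and 489 with vehicle. Its log2 change of -0.24 ± 0.06 passed narrowly (limma adjusted p = 0.0118), and the call ended without vehicle replicate 1, Dex replicate 2 or Dex replicate 3, with adjusted p of 0.0566, 0.0659 and 0.0664. Junb was also the member whose change the authors' deposited table gave an adjusted p of 0.114, while it called the other 4.

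The members that did not pass in WT were bounded unevenly. Maff, a small Maf protein without an activation region, averaged 183 ± 17.5 with Dex and 193 ± 14.2 with vehicle in WT (n = 3 each), and the 95% interval of its log2 change ran from -0.27 to 0.13. Fosb averaged 54.6 ± 5.92 and 46.8 ± 3.55, with an interval from -0.12 to 0.55, and Fos averaged 20.1 ± 1.52 and 20.1 ± 5.03, with an interval from -0.50 to 0.55. At 15 to 28 reads per WT library, any change of Fos inside that interval remains among the values the data allow at 95%.

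Summed per kb, the WT libraries with Dex held 934 ± 33.0 normalised counts of the 4 Fos genes, against 1253 ± 34.3 with vehicle, and 3367 ± 31.9 of the 3 Jun genes, against 2820 ± 14.5 with vehicle (SD, n = 3 each). Jun transcripts therefore stood at 3.61 ± 0.0985 times the Fos transcripts with Dex and 2.25 ± 0.0648 times with vehicle. This ratio was also higher with Dex, without overlap of libraries, in P643A (1.32 ± 0.0281, against 1.01 ± 0.0132) and W718E (1.28 ± 0.0370, against 1.12 ± 0.0317). In W718S/Y722S (1.24, against 1.11) and P631A (1.19, against 1.14) the libraries overlapped. In WT, Jund made up 78.1% ± 0.738 of the Jun sum with Dex and 68.7% ± 1.01 with vehicle. Jun held 15.5% ± 0.450 with Dex and 22.4% ± 1.02 with vehicle. These sums are a description that rests on the members already tested and on the transcript lengths used.

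**Figure D2:**
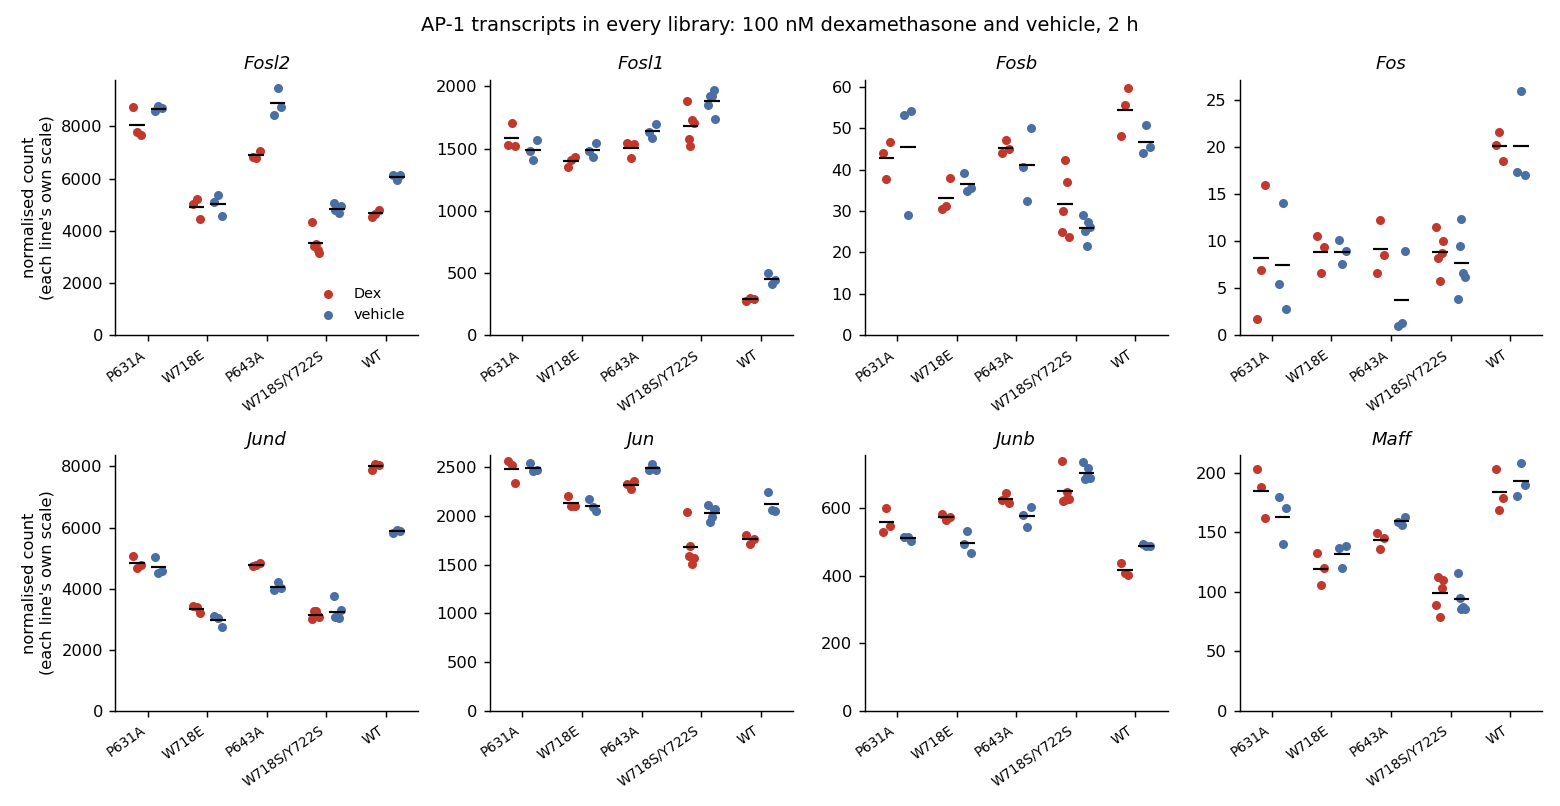
Normalised counts (linear axes from 0, each line on its own scale) of 8 AP-1 genes in every library, with Dex left of vehicle in each line; points are libraries and black lines are group means. In WT the Dex libraries of Jund lie above all vehicle libraries, and those of Fosl2, Fosl1, Jun and Junb lie below them, while Fos and Fosb overlap between groups.

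In P631A, limma called none of the 7 tested members with Dex, where 0.221% of 12691 genes tested were called. One member, Fosl2, had an unadjusted p under 0.05, and voom weights on the recovered counts also called 0. Jund averaged 4847 ± 201 with Dex and 4701 ± 279 with vehicle, and the libraries overlapped. The 95% interval of its log2 change was -0.06 to 0.15. Fosl2 had 8749, 7774 and 7689 normalised counts with Dex, against 8578, 8773 and 8703 with vehicle. Dex replicate 1 of P631A lay among the vehicle libraries for Fosl2 and the other 2 below them, and the log2 change was -0.11 ± 0.05 (limma adjusted p = 0.887). Fosl1, at 1586 ± 102 with Dex and 1486 ± 80.2 with vehicle, had an interval from -0.03 to 0.22, and Jun one from -0.11 to 0.09.

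In W718E the count of called members was also 0 of 7, where 0.524% of 12598 genes tested were called, and voom weights called 0 as well. An unadjusted p was under 0.05 for 2 members, Jund and Junb. In this line the deviations of same-numbered Dex and vehicle libraries correlated at 0.103, 0.483 and 0.580. The first was barely above the 0.1 used to call libraries paired. A limma fit with the replicate number as a block called 288 genes (2.29%) and those 2 members, both higher with Dex. These block results rest on that pairing, which the labels do not state. The correlations do not establish it either, since libraries of different numbers reached 0.289 in W718E. Jund had 3420, 3398 and 3196 normalised counts with Dex, against 3092, 3042 and 2743 with vehicle, and the groups did not overlap. Its log2 change was 0.18 ± 0.05, with a limma adjusted p of 0.2999 without the block and 7.52e-05 with it. Junb had 584, 567 and 575 with Dex, against 495, 533 and 468 with vehicle, also apart, with a log2 change of 0.21 ± 0.06 and an adjusted p of 0.363 without the block and 0.0453 with it. Fosl2 averaged 4908 ± 392 with Dex and 5021 ± 415 with vehicle, and the interval of its log2 change was -0.17 to 0.11. Jun averaged 2137 ± 56.2 with Dex and 2107 ± 61.3 with vehicle, with an interval from -0.06 to 0.10. Fosl1 averaged 1398 ± 40.2 and 1486 ± 55.5, with an interval from -0.18 to 0.01.

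In P643A, 2 of the 7 tested members passed in limma, Fosl2 lower and Jund higher, where 4.78% of 12597 genes tested were called (2.63% higher and 2.15% lower). Fosl2 had 6816, 6804 and 7053 normalised counts with Dex, against 8448, 9476 and 8741 with vehicle. Each Dex library lay below each vehicle library, and the log2 change was -0.37 ± 0.03 (limma adjusted p = 1.61e-09). Jund had 4724, 4756 and 4854 with Dex, against 3949, 4212 and 4026 with vehicle, again without overlap, and its log2 change was 0.23 ± 0.03 (limma adjusted p = 1.55e-06). Jun and Fosl1 missed the threshold narrowly. Jun averaged 2323 ± 38.2 with Dex and 2496 ± 35.3 with vehicle (log2 change -0.10 ± 0.03, limma adjusted p = 0.0567), and Fosl1 averaged 1502 ± 68.8 and 1638 ± 55.0 (-0.13 ± 0.04, limma adjusted p = 0.0617). Neither gene's groups overlapped. Jun passed without the variance trend (adjusted p = 0.0373). Fosl1 passed without vehicle replicate 2 (adjusted p = 0.0362), and Ccdc85b had a change of -0.10 ± 0.04. Junb, at 630 ± 14.3 with Dex and 577 ± 30.7 with vehicle, had an interval from 0.02 to 0.24 and a limma adjusted p of 0.241.

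In W718S/Y722S, limma called 2 of the 7 tested members, Fosl2 and Jun, both lower with Dex, where 4.79% of 12436 genes tested were called (2.55% higher and 2.24% lower). Fosl2 had 4346, 3405, 3493, 3248 and 3144 normalised counts with Dex, against 5066, 4781, 4782, 4688 and 4948 with vehicle. The groups did not overlap, although Dex replicate 1 lay nearest to vehicle, and the log2 change was -0.47 ± 0.06 (limma adjusted p = 5.75e-05). Jun had 2045, 1587, 1698, 1512 and 1573 with Dex, against 2117, 1939, 1986, 2068 and 2073 with vehicle. Dex replicate 1 fell within the vehicle range for Jun and the other 4 below it, with a log2 change of -0.28 ± 0.06 (limma adjusted p = 0.00754). The Jun call ended when near-identical libraries were averaged and counted once (adjusted p = 0.144).

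Jund did not follow the WT pattern in W718S/Y722S. It had 3008, 3261, 3261, 3096 and 3067 normalised counts with Dex, against 3751, 3076, 3066, 3036 and 3310 with vehicle, overlapping throughout, and the interval of its log2 change was -0.15 to 0.06. Fosl1 averaged 1682 ± 141 with Dex and 1883 ± 90.6 with vehicle (n = 5 each) and did not pass with all libraries (log2 change -0.17 ± 0.05, limma adjusted p = 0.0672). Without Dex replicate 1, the fit called 970 genes (7.8%) and 4 members, adding Fosl1 (adjusted p = 0.000764) and Junb (adjusted p = 0.00674), both lower, while Fosl2 and Jun kept their calls (adjusted p = 7.30e-13 and 2.21e-08) and Jund did not pass (0.773). The fit without Dex replicate 1 counted the near-identical Dex libraries as separate, and it was not run with them averaged. Without vehicle replicate 5, Fosl1 also passed (adjusted p = 0.0445). Ccdc85b fell in this line too, with a log2 change of -0.16 ± 0.04 (limma adjusted p = 0.0162).

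**Figure D3:**
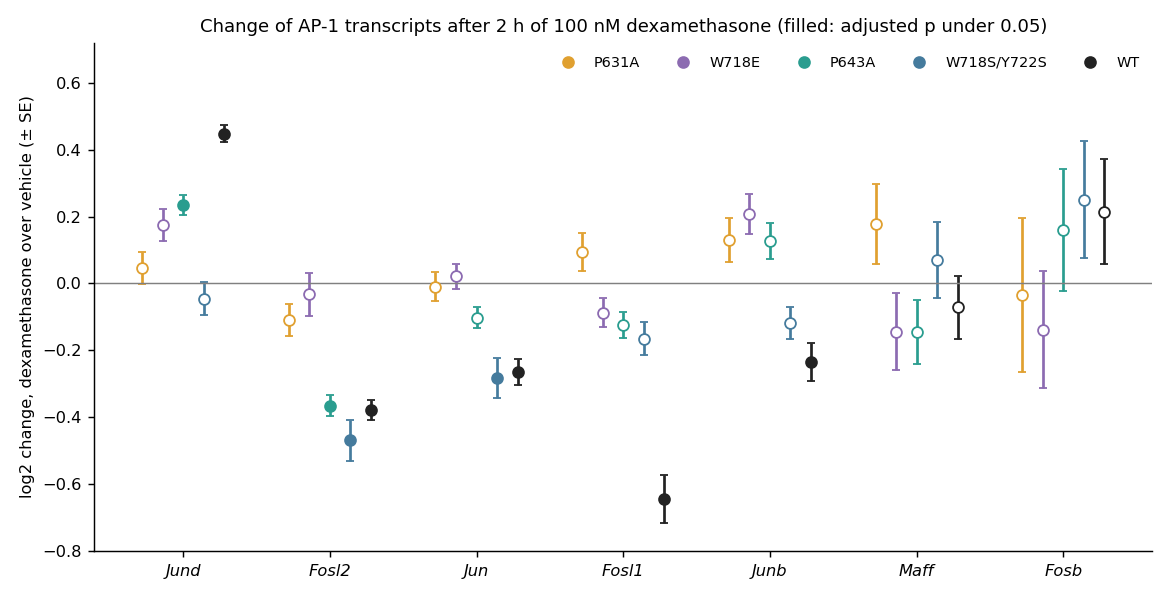
Log2 change with Dex over vehicle (± SE, on recovered counts plus 1) of 7 AP-1 genes in the 4 mutant lines and WT; filled points passed an adjusted p of 0.05 in limma without a replicate block. Fosl2 fell in P643A, W718S/Y722S and WT, Jund rose in P643A and WT, and no point is filled for P631A or W718E.

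Fosl2 was the member called in most lines, with log2 changes of -0.37, -0.47 and -0.38 in P643A, W718S/Y722S and WT, and Jund and Jun were each called in 2. Whether the response of each member differed from WT was tested on the difference of the 2 changes, mutant minus WT, over the libraries of both lines. The 4 differences share the WT libraries and so are not independent of each other. Limma called this difference in 1.93% of 13089 genes tested for P631A, 1.78% of 13041 for W718E, 1.55% of 13067 for P643A and 1.72% of 13055 for W718S/Y722S. Of the 7 members tested within both lines, it was called in 5 for P631A, 5 for W718E, 3 for P643A and 2 for W718S/Y722S. Fos entered these fits through its WT libraries and was not called (adjusted p from 0.442 to 0.996).

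Fosl1 and Jund differed from WT in all 4 mutants. The log2 change of Fosl1 was higher than in WT by 0.48 ± 0.09 in W718S/Y722S, 0.52 ± 0.08 in P643A, 0.56 ± 0.08 in W718E and 0.74 ± 0.09 in P631A, with limma adjusted p of 0.00222, 0.000252, 0.000503 and 4.88e-05. The vehicle level of Fosl1 was also higher in each mutant than in WT, and its part in these differences was not tested. For P631A, the log2 change of the overlapping gene Ccdc85b was also higher than in WT, by 0.34 ± 0.08 (limma adjusted p = 0.0239). The part of Ccdc85b reads in the Fosl1 differences was not tested. In W718S/Y722S the Fosl1 difference was not called on the deposited values (adjusted p = 0.574). Jund's difference was -0.49 ± 0.07 in W718S/Y722S, -0.21 ± 0.04 in P643A, -0.27 ± 0.06 in W718E and -0.40 ± 0.06 in P631A, with limma adjusted p of 8.69e-05, 0.00155, 0.00922 and 0.000137. Without the variance trend the Jund call for W718E ended (adjusted p = 0.126). The vehicle level of Jund was lower in each mutant than in WT, and its part in the Jund differences was not tested.

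Junb differed from WT in 3 mutants, by 0.36 ± 0.08 in P631A, 0.44 ± 0.08 in W718E and 0.36 ± 0.08 in P643A, with limma adjusted p of 0.0230, 0.00340 and 0.00821. The Junb estimate was above 0 in these lines, but limma without the replicate block called it in none of them. In P631A its 95% interval ran from -0.01 to 0.27. In WT the Junb change was below 0, and that call held in 3 of the 6 fits that left out 1 library. In W718S/Y722S the Junb difference was 0.12, with a 95% interval from -0.04 to 0.27. Fosl2 and Jun differed from WT in P631A and W718E. For Fosl2 the differences were 0.27 ± 0.06 (adjusted p = 0.0159) and 0.35 ± 0.08 (0.0184), and for Jun 0.26 ± 0.06 (0.0313) and 0.29 ± 0.06 (0.00742). For P643A the interval of the Fosl2 difference was -0.09 to 0.11 and for W718S/Y722S -0.28 to 0.09, so a difference larger than these bounds is not among the values the data allow at 95%. For Jun the interval was 0.06 to 0.26 in P643A (adjusted p = 0.145) and -0.20 to 0.17 in W718S/Y722S.

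Several of these calls did not hold in every fit. Without the variance trend, the Fosl2 and Jun differences ended for P631A (adjusted p = 0.151 and 0.162) and for W718E (0.232 and 0.0740). With near-identical libraries averaged, those of Jun and Junb ended for P631A (0.0897 and 0.0736). For P631A, the Fosl2 difference ended without WT vehicle replicate 1 or 3 (adjusted p = 0.0599 and 0.0622). The Jun difference held in only 5 of the 12 fits that left out 1 library (adjusted p up to 0.127), and so did the Junb difference (up to 0.0803). For W718E, the Fosl2 difference held in 6 of 12 (adjusted p up to 0.0712), while with the replicate block its adjusted p was 6.65e-07 and 2.82% of genes were called. For W718S/Y722S without Dex replicate 1, the difference of Fosl2 became -0.17 and passed (adjusted p = 0.0440), with 2.67% of genes called. The differences of Fosl1 and Jund without that library were 0.44 and -0.48 and kept their calls (adjusted p = 0.000486 and 9.26e-06).

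**Figure D4:**
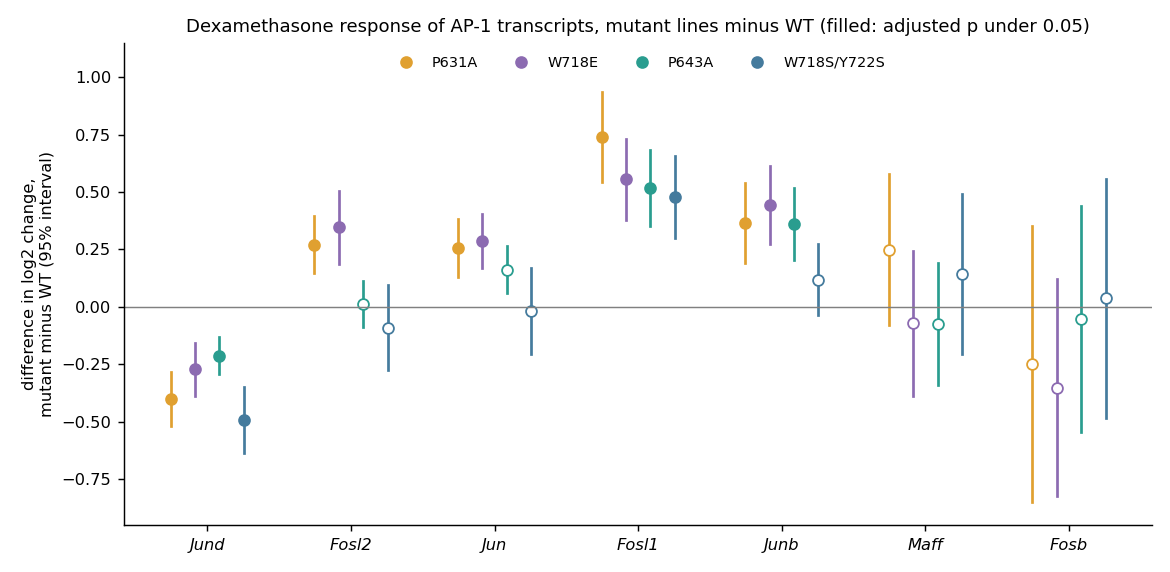
Difference in the log2 change with Dex, mutant minus WT, for 7 AP-1 genes, with 95% intervals; filled points passed an adjusted p of 0.05 in limma. All Fosl1 differences lie above 0 (0.48 to 0.74) and all Jund differences below it (-0.49 to -0.21), whereas those of Fosl2 lie near 0 for P643A and W718S/Y722S.

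For the members called in at least 2 lines, the genes with the most similar 5 log2 changes were found by distance among 472 genes called in at least 2 lines. Nearest to Fosl2 were Artn, a ligand of the GDNF family (distance 0.145), Dusp8, a MAP kinase phosphatase (0.149), and Gadd45a, a stress response gene (0.166). Nearest to Jun were Tnrc18 (0.0910), Midn (0.118) and the pseudogene Pisd-ps1 (0.136). Nearest to Jund were Pgpep1, a peptidase (0.0707), Foxo1, a forkhead transcription factor (0.127), and Pank3, a kinase of coenzyme A synthesis (0.154). Foxo1 had log2 changes of 0.03, 0.10, 0.27, 0.05 and 0.44 in P631A, W718E, P643A, W718S/Y722S and WT, against 0.05, 0.18, 0.23, -0.05 and 0.45 for Jund. The distance is a description over 5 values.

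Some of the other leucine zipper partners were called in 3 lines. Of 16 tested, 3 passed in P643A (1 higher), 3 in W718S/Y722S (none higher) and 4 in WT (none higher), where 4.78%, 4.79% and 6.7% of all genes were called, with medians of -0.03, -0.06 and -0.07 on the log2 scale, against 0.00 over all genes in each line. None passed in P631A or W718E by limma or voom, where 1 had an unadjusted p under 0.05 in each, and 1 passed in W718E with the replicate block. Ddit3, which encodes the stress factor CHOP, fell in 3 lines. It averaged 761 ± 54.0 with Dex and 901 ± 37.4 with vehicle in P643A, 898 ± 89.8 and 1120 ± 37.6 in W718S/Y722S, and 508 ± 26.4 and 615 ± 31.7 in WT. Nfe2l1, a Maf partner, fell in the same lines by 0.13, 0.24 and 0.09 on the log2 scale. Mafg, another small Maf, passed in WT (log2 change -0.20 ± 0.04, limma adjusted p = 0.000873), and Atf5 passed in W718S/Y722S (-0.18 ± 0.04, limma adjusted p = 0.00431).

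The kinases and serum response factors that act upstream of AP-1 were called about as often as all genes. Of 24 tested, 1 passed in P643A, 1 in W718S/Y722S and 2 in WT, near the 4.78%, 4.79% and 6.7% of all genes called there. None passed in P631A or W718E, where an unadjusted p was under 0.05 for 0 and 1, and voom called 0. The median log2 change was between -0.02 and 0.01 in every line. Mapk14, which encodes the p38 alpha kinase, was the gene that rose in 3 lines. It averaged 2737 ± 104 with Dex and 2473 ± 41.4 with vehicle in P643A, 2047 ± 45.0 and 1780 ± 41.5 in W718S/Y722S, and 2973 ± 62.1 and 2257 ± 32.3 in WT. Srf, which encodes serum response factor, passed in WT, at 2345 ± 97.4 with Dex and 2664 ± 71.3 with vehicle (log2 change -0.18 ± 0.03, limma adjusted p = 0.00165).

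Other immediate early genes were called in every line. Of 26 tested, 1 passed in P631A, 4 in W718E (7 with the replicate block), 10 in P643A, 15 in W718S/Y722S and 14 in WT, where 0.221%, 0.524%, 4.78%, 4.79% and 6.7% of all genes tested were called. Of these, 12 of the 15 in W718S/Y722S and 9 of the 14 in WT were lower. In P643A 6 were lower and 4 higher, and in W718E 2 were lower and 2 higher. Over the list, the median log2 change was -0.17 in W718S/Y722S, -0.16 in WT, -0.05 in P631A, -0.02 in W718E and 0.01 in P643A, against 0.00 over all genes. Dusp4, a phosphatase of MAP kinases, fell in all 5 lines, by 0.45, 0.46, 0.47, 0.57 and 0.87 on the log2 scale in P631A, W718E, P643A, W718S/Y722S and WT. Phlda1 fell in W718E, P643A, W718S/Y722S and WT, with changes of -0.25, -0.27, -0.64 and -1.06. Sphk1, a sphingosine kinase, rose in those 4 lines (0.50, 1.32, 1.23 and 1.04), as did Rhob, an early response GTPase (0.24, 0.48, 0.25 and 1.22). In P631A the changes of Sphk1 and Rhob were 0.31 ± 0.08 and -0.06 ± 0.04, and neither passed.

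Genes listed as AP-1 targets moved in both directions. Of the 29 in the list, 21 were tested in each of P631A, W718E, P643A and WT and 20 in W718S/Y722S. In P643A 7 passed (3 higher, 4 lower), in W718S/Y722S 9 (2 higher, 7 lower), in WT 12 (2 higher, 10 lower) and in W718E 1, which was higher, or 4 with the replicate block. The shares of all genes called in these lines were 4.78%, 4.79%, 6.7% and 0.524% (2.29% with the block). In P631A 0 passed by limma or voom, and 6 had an unadjusted p under 0.05. The median log2 change was -0.08 in P643A, -0.12 in W718S/Y722S and -0.13 in WT, against 0.00 over all genes. Hmga2, a chromatin protein, rose in P643A, W718S/Y722S and WT by 1.52, 1.72 and 1.73 times, and Ezr, a membrane linker, rose in W718E as well as those lines, by 1.16 to 1.21 times. Ptgs2, which encodes cyclooxygenase 2, fell in P643A, W718S/Y722S and WT, with log2 changes of -0.57, -0.37 and -0.26. Hbegf, which encodes a ligand of the EGF receptor, fell in the same lines. It averaged 232 ± 24.1 with Dex and 297 ± 32.4 with vehicle in P643A, 231 ± 14.9 and 292 ± 21.0 in W718S/Y722S, and 152 ± 2.91 and 234 ± 21.6 in WT, and its groups did not overlap in any of these lines.

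**Figure D5:**
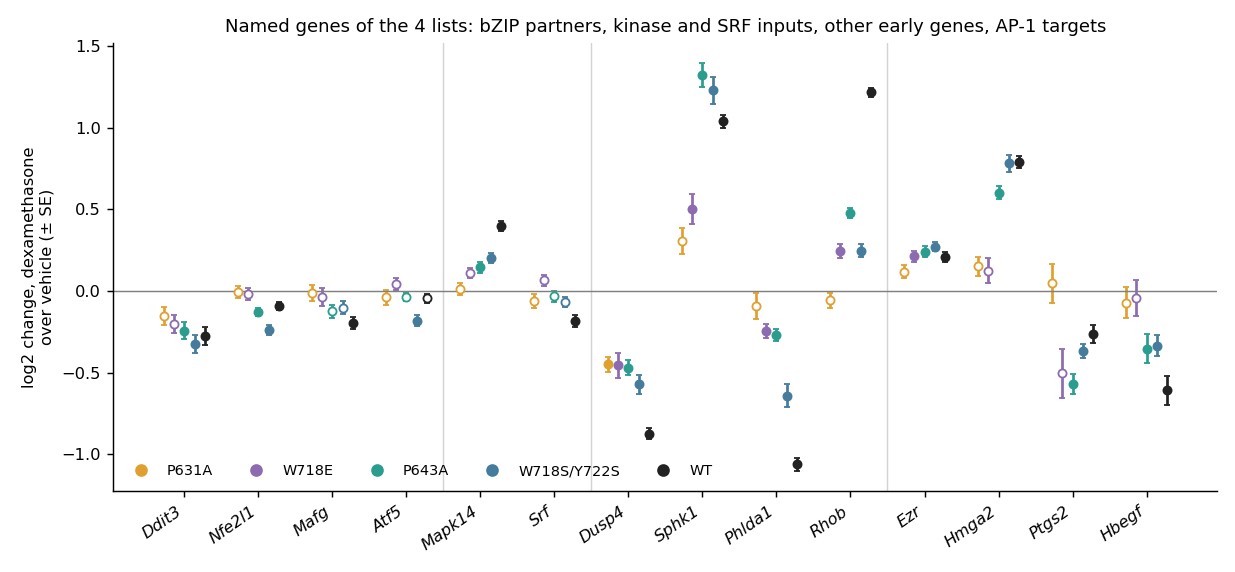
Log2 change with Dex over vehicle (± SE, on recovered counts plus 1) of up to 4 genes from each of 4 lists, in order bZIP partners, kinase and SRF inputs, other early genes and AP-1 targets, in the 4 mutant lines and WT; filled points passed an adjusted p of 0.05 in limma. Dusp4 is filled and below 0 in all 5 lines, and Ezr is above 0 in all 5 and filled in 4.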

How the data were processed

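Total RNA was sequenced after a stranded library preparation, per the labels' protocols. Per the submitters' processing notes, the authors used cutadapt, STAR 2.7.0f, HOMER 4.10.4 and mm10. Per the file headers, the authors counted reads in exons of RefSeq transcripts and kept 1 transcript per gene, with no strand option given. They deposited log2 values per library in 1 table per line, normalised within the table, with log2 fold changes, p-values and adjusted p-values.

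The log2 values deposited by the authors were shrunken toward each gene's mean. Whole counts were recovered by inverting the shrinkage. For gene means of 100 to 1000, which were not used to fit it, 98.4 to 99.9% of values came out within 0.1 of a whole count. For means of 1000 to 10000 it was 60.3 to 99.2%. Counts of Jund, Fosl2 and Jun are therefore approximate in some lines, as are those of Fosl1 in some mutant lines. Calls within a line come from limma 3.58.1 (variance trend) on the deposited log2 values, for genes of at least 10 unlogged in a number of libraries equal to the size of the smaller group, at a Benjamini-Hochberg adjusted p under 0.05. Levels, log2 changes, SE and 95% intervals come from recovered counts with a pseudocount of 1, and so do the differences from WT (at least 10 in 3 libraries). Scripts were tested on simulated data.

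The members and gene lists were chosen with earlier results of these data known, and 1 gene of the AP-1 target list is not reported here. All 10 members are described. From each list, up to 4 genes called in most lines are named, ties broken by mean absolute log2 change, and for members called in 2 lines the 3 nearest genes. Same-numbered libraries count as paired where every pair's deviations correlate above 0.1. This held in W718E (0.103, 0.483 and 0.580) and in no other line. Libraries of different numbers also correlated above 0.1, up to 0.415 in P631A, 0.291 in W718S/Y722S, 0.289 in W718E and 0.193 in WT. The rule therefore cannot establish pairing. Alternatives were the scale, filters, centring, variance trend, replicate block, leaving out each library and, chosen after seeing the data, voom weights and averaging near-identical libraries. The levels per kb across lines used size factors over all libraries. Intervals cover the spread between libraries only.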

Additional observations from a re-analysis of the deposited data

Results flagged for a closer look

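Of 16 sets of 5 member levels in W718S/Y722S, 1 held a library far from the others: Junb in Dex replicate 1, at 740.5 normalised counts against 622 to 649 in the other 4 Dex libraries. Chance flags about 1 in 20 such sets, and this library also stood apart over all genes.

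The other flagged results are differences between a mutant line and WT in the log2 change with Dex, mutant minus WT, each called by limma. For P631A they were Fosl1 (0.74), Fosl2 (0.27), Jun (0.26), Junb (0.36) and Jund (-0.40). For W718E they were Fosl1 (0.56), Fosl2 (0.35), Jun (0.29), Junb (0.44) and Jund (-0.27). For P643A they were Fosl1 (0.52), Junb (0.36) and Jund (-0.21), and for W718S/Y722S they were Fosl1 (0.48) and Jund (-0.49). The same WT libraries enter all of them.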

How the results depend on the processing

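Fosl2, Jund, Jun and Fosl1 in WT, Fosl2 and Jund in P643A and Fosl2 in W718S/Y722S kept their call and direction under every alternative run. With 1 library left out, the genes called numbered 14 to 49 in P631A (28 with all), 28 to 76 in W718E (66), 412 to 970 in W718S/Y722S (596) and 153 to 349 for the difference of W718S/Y722S from WT (224), and the members called numbered 2 to 4 in W718S/Y722S and 2 to 5 for the difference of P631A. Without a variance trend the counts were 5 genes in P631A, 42 in W718E, 387 in P643A (602), and, for differences from WT, 158 for P631A (253; 3 members), 151 for W718E (232; 2 members) and 115 for P643A (203). On the deposited log2 values the differences numbered 361 genes for W718E, 315 for P643A and 1 member for W718S/Y722S. The replicate block gave 5 genes in P631A, 288 in W718E with 2 members, 368 for the difference of W718E and 2 members for that of P631A, where Fosl2, Jun and Junb were lost (adjusted p = 0.0669, 0.0523 and 0.0804). In P643A the block added Fosl1 (limma adjusted p = 0.0285). Same-numbered libraries there correlated at 0.160, 0.108 and 0.00222, and in P631A at -0.482, -0.160 and -0.355. Neither line met the rule of 0.1 for every pair, although 0.160 and 0.108 in P643A exceeded the lowest value of W718E (0.103). Among member calls within WT and W718S/Y722S the block changed none. Averaging near-identical libraries gave 273 genes and 1 member in W718S/Y722S, 125 genes for its difference from WT, 3 members for the difference of P631A, and lost Junb in WT (adjusted p = 0.0546).

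Reversals touched only uncalled values near 0. Fos in WT became 0.0234 on recovered counts, 0.0250 with voom weights and 1.7e-05 with near-identical libraries averaged. Without single libraries, the log2 changes on the deposited, shrunken scale ran from -0.0024 to 0.0049 for Fos in WT, in P631A from -0.0150 to 0.0027 for Fosb and from -0.0192 to 0.0163 for Jun, in W718E from -0.0593 to 0.0196 for Fosl2 and from -0.00057 to 0.0216 for Jun, and in W718S/Y722S from -0.0481 to 0.0053 for Jund. The differences from WT ran from -0.150 to 0.0141 for Maff in W718E, in P643A from -0.206 to 0.0968 for Fosb and from -0.0229 to 0.0599 for Fosl2, and in W718S/Y722S from -0.0759 to 0.128 for Fosb and from -0.0903 to 0.0184 for Jun, the last 2 being -0.0056 and 0.0081 with near-identical libraries averaged. The causes were not tested. Depth limits Fos, Atf3 and Batf3 most.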
